A study of Mus musculus with 12 samples.

Results

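The clustered histone genes were followed in nuclear RNA of mouse hippocampus. They were taken by name, as every row of the count table whose symbol begins with Hist1h, Hist2h, Hist3h or Hist4h, which gave 68 of 24015 rows. The Hist1 locus on chromosome 13 held 54 of them, the Hist2 locus on chromosome 3 held 10, the Hist3 locus on chromosome 11 held 3 and the Hist4 locus on chromosome 6 held 1. By product, 6 encode the linker histone H1, 18 encode H2A, 19 belong to H2B (1 of these, Hist3h2bb-ps, is a pseudogene), 12 encode H3 and 13 encode H4. The members took between 0.00471% and 0.0504% of the counts of a library.

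The libraries came from nuclei of fixed hippocampus sorted with antibodies to Arc, GFP and the neuronal nuclear protein NeuN, with 3 libraries each titled Basal, Early, Late and Reactivated. All mice carried ArcCreERT2, a tamoxifen-dependent Cre recombinase driven from the Arc gene, with an R26R-STOP-floxed eYFP reporter (genotype +/+), so that cells with active Arc near the time of the drug keep a fluorescent mark. Every group received 4-hydroxytamoxifen 1 h before contextual fear conditioning per the protocol, with 24 h of darkness before the task. Brains were collected 1.5 to 2 h after the task, or mice spent a further 48 h in the dark and were collected on day 5, some of them after meeting the cue again. A library is a pool of 10 to 12 mice, and neither age nor sex is given. The titles alone define the groups, because the treatment field is identical for all 12 libraries, and no label ties a title to a collection time or to a sorting gate.

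Histones package DNA. H2A, H2B, H3 and H4 form the core particle, and H1 binds the DNA that enters and leaves it. Most genes of the clusters are known to be transcribed chiefly in S phase, and their messages classically end in a short stem-loop in place of a poly(A) tail. That stem-loop is bound by Slbp, and the U7 small nuclear ribonucleoprotein directs the cut just after it. Neurons do not divide, and in such cells some cluster genes are known to give longer, polyadenylated messages. Hist1h1t, Hist1h2aa and Hist1h2ba are known as testis forms.

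The stem-loop was searched for in the GENCODE M21 transcript models on the transcript strand, as the 16-base consensus of the histone 3′ end with some positions left free. The element was present in 46 of the 68 members and in 90 of 21810 other coding genes (0.413%). The form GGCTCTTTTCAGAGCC was shared by 26 members of H1, H2A, H2B and H3, and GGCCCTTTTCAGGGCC was found in 7 members, all H4. The matches of the members that the results below turn on are printed with 5 bases on each side, the 16-base match in capitals, to show that members with different patterns across the groups have nearly the same element.
Hist1h1c: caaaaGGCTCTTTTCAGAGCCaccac
Hist1h1e: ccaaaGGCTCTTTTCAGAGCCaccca
Hist3h2a: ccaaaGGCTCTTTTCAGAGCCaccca
Hist1h2be: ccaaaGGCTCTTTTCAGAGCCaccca
Hist2h2ac: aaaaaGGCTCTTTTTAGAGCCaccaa
Hist1h4h: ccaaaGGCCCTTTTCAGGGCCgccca
The printed stretches of Hist1h1e, Hist3h2a and Hist1h2be are the same in all 26 bases. The models of Hist1h2bc and Hist1h2af hold no match, which says only that these letters are not in the annotated transcripts.

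The annotation runs on past the stem-loop by 840 bases in Hist1h1c, 1153 in Hist1h1e, 4884 in Hist1h1d, 1643 in Hist3h2a and 1861 in Hist1h2be, but by 46 in Hist1h4h and 57 in Hist2h2ac. Of the 23 members with at least 100 such bases, 10 had enough counts to be tested and the median summed count over the 12 libraries was 71.0. Of the 23 members with fewer, 2 were tested and the median was 5.0. These counts were not divided by the length of the model or corrected for sequence shared with other copies. The limit of 100 bases was set after these values were seen, and the gene annotation used by the authors is not given in the sources used here.

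Many members are near-identical copies, which bears on every count given here. The 67 members with a coding sequence encode 30 distinct proteins. All 13 H4 genes encode one protein, 9 H2A genes another, 8 H3 genes another and 4 H3 genes another. Hist1h2bc, Hist1h2be and Hist1h2bg encode one H2B. At the level of bases, Hist1h2af was 98.7% identical in its coding sequence to Hist1h2ad, Hist1h2bc was 98.9% identical to Hist1h2bj, and Hist1h4h was 96.8% identical to Hist1h4n. Hist1h1c, Hist1h1e and Hist3h2a stood further from their nearest relatives, at 84.6%, 84.5% and 89.7%.

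Each coding sequence was divided into all its 50-base windows, and the share of windows found again in another gene was taken as a measure of how far reads could be split. In 12 members every coding window was shared. Of these, 10 were at 0 in all 12 libraries, none was tested, and the most counts in any was 8. In 16 members under 50% of the windows were shared, and of these 11 were tested, 1 was at 0 and the median summed count was 175.5. In the 32 members between, with 50% to under 90% shared, 6 were tested and the median was 13. Across 67 members the rank correlation between the share of windows and the summed count was -0.65. For the number of windows of the whole model found in no other gene it was 0.58 across 68 members. These values describe genes that share the same 12 libraries. How the authors treated reads that fit several copies is not given in the sources used here, so a count of 0 in a copy cannot be told apart from counts lost to another copy.

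**Figure D1:**
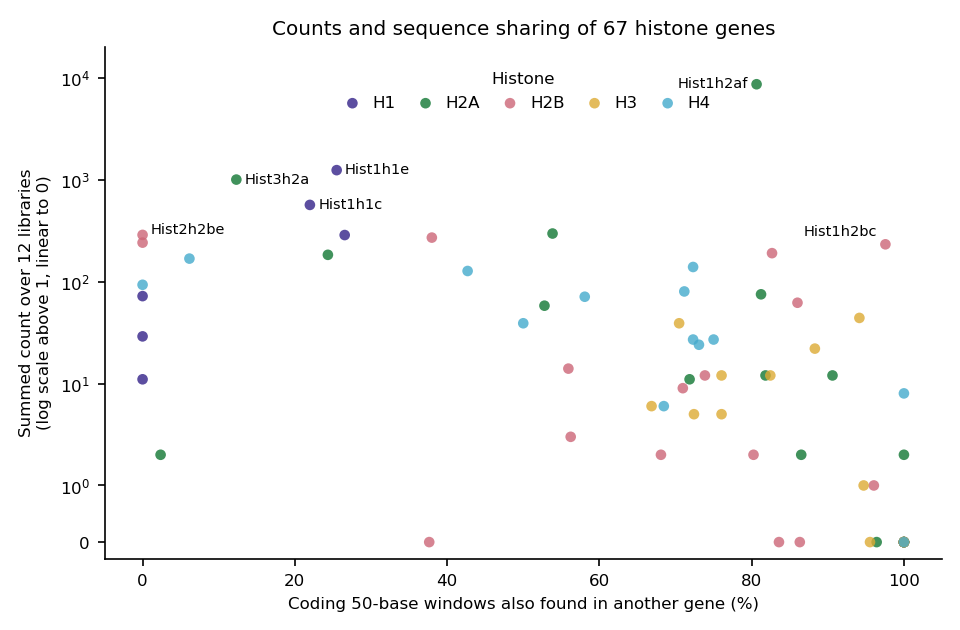
Summed count over the 12 libraries (y axis, log scale above 1 and linear to 0) against the percentage of coding 50-base windows also found in another gene (x axis) for 67 members, 1 point each, coloured by histone. The 10 points at 100% and 0 counts lie on top of each other, and Hist1h2af, with 8623 counts and 80.6% of its windows shared, stands above all other members.

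Members were tested when they had at least 10 counts in at least 3 libraries, which left 18 of 68. These were 4 H1, 5 H2A, 5 H2B and 4 H4 genes. No H3 gene was tested, and the 12 H3 genes together had 146 counts over all libraries. None of the 18 reached 10 counts in a single group only. Another 15 members were at 0 in every library, and the 50 untested members had at most 93 counts each. Levels below are normalized counts, that is counts divided by a scaling factor for each library, and a gene is said to have risen or fallen where the quasi-likelihood test of edgeR gave an adjusted p under 0.05 over all 15668 genes tested. Comparisons that share a group share its libraries, and their values are given side by side only.

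Total counts ran from 4838166 to 11120255 per library, and 30 to 40 members had a count in each. The precursor of ribosomal RNA, Rn45s, took 4.72% to 12.9% of counts in Basal and Early, 18.8% to 27.7% in Reactivated and 27.9% to 36.5% in Late. Its share therefore moved with the groups. Fits with this share as a covariate are given below, but where it does not overlap between groups it and the group cannot be told apart. Summed over 6 neuron markers, levels ran from 11241 to 12709 for Basal, from 14944 to 16629 for Early, from 14697 to 15555 for Late and from 18042 to 20863 for Reactivated. Glial markers were also present in every library, with 10 astrocyte markers summing to between 3517 and 11401. In bulk nuclei, fewer cells of a type and less RNA per cell cannot be told apart.

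Of the 18 members tested, 8 differed among the 4 groups, against 58.6% of all genes. They were Hist1h1c, Hist1h1e, Hist1h2af, Hist1h2bc, Hist1h2be, Hist1h4h, Hist2h2ac and Hist3h2a. The H1 genes Hist1h1c and Hist1h1e rose in Late and in Reactivated against Basal, while Hist1h2bc and Hist3h2a fell in Late. No member passed in Early against Basal.

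**Figure D2:**
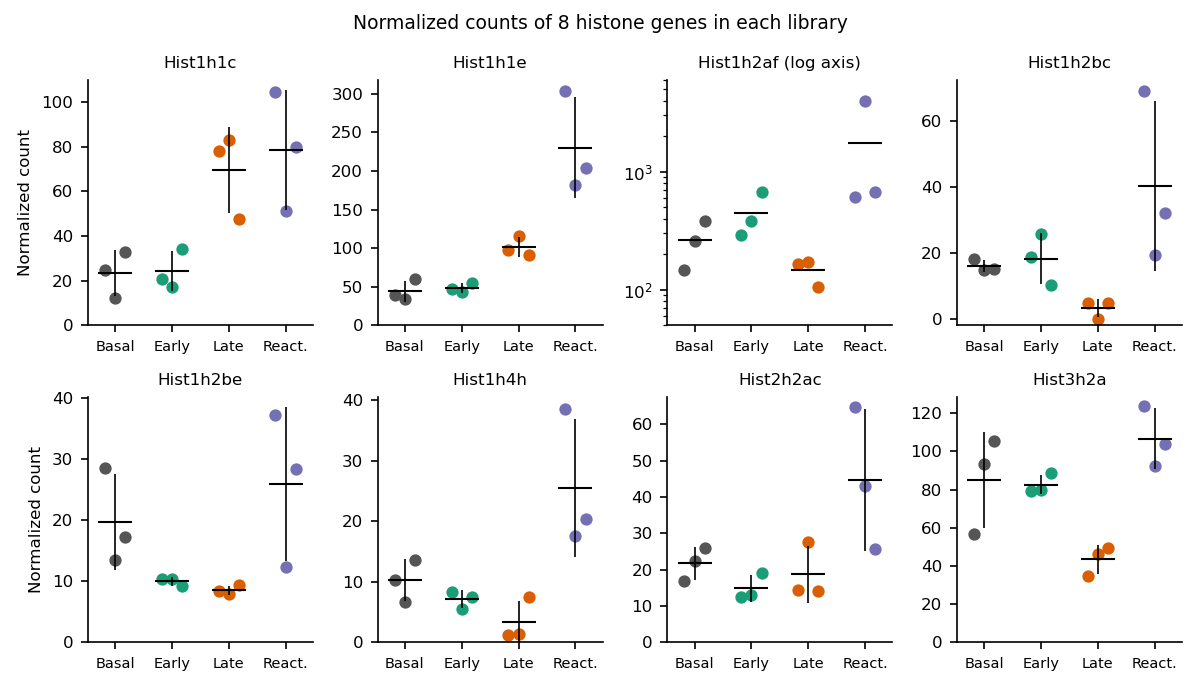
Normalized counts (y axis, linear except for Hist1h2af) in the 4 groups (x axis) for the 8 members that differed among the groups, 1 point per library, with the group mean as a horizontal line and ± 1 SD as a vertical line (SD not drawn for Hist1h2af). All 3 Reactivated libraries of Hist1h1e lie between 181 and 304, above the Late libraries at 90.6 to 116.

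Hist1h1e encodes H1.4, one of the somatic linker histones, and was the most abundant H1 gene of the clusters. Its normalized counts were 38.9, 33.7 and 59.5 in the Basal libraries, 47.0, 42.8 and 55.1 in the Early libraries, 97.3, 116 and 90.6 in the Late libraries, and 304, 181 and 204 in the Reactivated libraries. The Late libraries were all above those of Basal and Early, and the Reactivated libraries were all above those of Late. The log2 fold change was 1.17 ± 0.26 (SE) in Late against Basal (edgeR, adjusted p = 0.00205), 2.35 ± 0.26 in Reactivated against Basal (adjusted p = 3.71e-05) and 1.18 ± 0.24 in Reactivated against Late (adjusted p = 0.0029). Against Early it was 1.07 ± 0.26 for Late and 2.24 ± 0.25 for Reactivated. The model of Hist1h1e overlaps a spliced model of Hist1h2be on the same strand, so the counting could have split or dropped reads that lie in both.

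Hist1h1c, which encodes the linker histone H1.2, rose in Late and stayed near that level in Reactivated. Its normalized counts were 24.6, 12.3 and 33.0 in the Basal libraries, 20.9, 17.2 and 34.2 in the Early libraries, 78.1, 83.2 and 47.6 in the Late libraries, and 105, 51.0 and 79.9 in the Reactivated libraries. The Late and Reactivated libraries overlapped each other, and both groups lay above all Basal and Early libraries. The log2 fold change was 1.53 ± 0.40 in Late against Basal (edgeR, adjusted p = 0.0054) and 1.70 ± 0.39 in Reactivated against Basal (adjusted p = 0.00413). Between Reactivated and Late it was 0.17 ± 0.37 (adjusted p = 0.783).

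Hist1h1d, which encodes H1.3, was at 10.4, 19.1 and 32.3 in the Basal libraries, 12.5, 5.52 and 24.2 in the Early libraries, 28.8, 13.2 and 14.0 in the Late libraries, and 66.1, 32.6 and 29.3 in the Reactivated libraries. It rose only in Reactivated against Early among the 6 comparisons (log2 1.58 ± 0.56, edgeR adjusted p = 0.0484). The call held in 9 of 22 alternative analyses, and it ended when any 1 of Basal 2, Early 1, Early 2, Late 1, Late 2, Late 3, Reactivated 1 or Reactivated 2 was left out. Hist1h1a was tested but passed in no comparison, with group means between 4.41 and 10.6. The other H1 genes, Hist1h1b and Hist1h1t, were not tested. Summed over the 6 H1 genes, the level was 99.0 ± 27.5 for Basal, 92.8 ± 24.1 for Early, 204 ± 35.3 for Late and 358 ± 109 for Reactivated (SD, n = 3 libraries each).

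The promoters of Hist1h1c and Hist1h1e are shown because both genes were higher in Late and Reactivated, and that of Hist3h2a because it was lower in Late. Each is the 250 bases before the RefSeq start on GRCm38.p6, in the direction of transcription, with matches on either strand in capitals. The motifs searched were the CCAAT box, the TATA box as TATAAA and, for H1 genes, the H1 box as AAACACA, and none of the printed matches overlap. Hist1h1c lies at chr13:23738557-23738806 on the plus strand, Hist1h1e at chr13:23622559-23622808 on the minus strand and Hist3h2a at chr11:58954435-58954684 on the plus strand.
Hist1h1c: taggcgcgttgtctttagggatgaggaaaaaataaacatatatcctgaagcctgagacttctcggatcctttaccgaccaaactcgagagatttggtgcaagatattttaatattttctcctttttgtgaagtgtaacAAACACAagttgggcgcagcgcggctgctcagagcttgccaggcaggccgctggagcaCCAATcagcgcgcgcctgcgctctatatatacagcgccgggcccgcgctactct
Hist1h1e: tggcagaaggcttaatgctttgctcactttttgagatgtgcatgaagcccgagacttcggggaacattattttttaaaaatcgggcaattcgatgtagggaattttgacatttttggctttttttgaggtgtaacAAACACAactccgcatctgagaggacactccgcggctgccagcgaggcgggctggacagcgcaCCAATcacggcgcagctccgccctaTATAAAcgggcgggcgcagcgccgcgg
Hist3h2a: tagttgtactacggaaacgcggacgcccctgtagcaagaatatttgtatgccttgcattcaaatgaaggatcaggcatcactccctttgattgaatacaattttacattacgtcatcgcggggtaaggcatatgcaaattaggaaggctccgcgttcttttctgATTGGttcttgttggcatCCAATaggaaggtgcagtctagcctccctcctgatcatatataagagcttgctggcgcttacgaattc
Both H1 promoters hold AAACACA upstream of CCAAT, and Hist3h2a holds CCAAT on both strands and no AAACACA. Promoters were matched for 61 of the 68 members. CCAAT was in 50 of these, against 33.8% of 32851 promoters of the same length, TATAAA was in 29 against 12.4%, and AAACACA was in 9 against 6.25%. Of the 6 H1 genes, 5 held AAACACA. Of the motifs, CCAAT was in all 3 printed promoters, although Hist3h2a differed in Late in the direction opposite to both H1 genes. A match is not evidence of binding.

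Among the H2A genes, Hist3h2a of the small Hist3 locus went the other way from H1 in Late. Its normalized counts were 57.0, 93.2 and 105 in the Basal libraries, 79.3, 80.0 and 88.5 in the Early libraries, 34.8, 46.2 and 49.5 in the Late libraries, and 124, 92.4 and 104 in the Reactivated libraries. All Late libraries lay below all others, and the Reactivated libraries overlapped those of Basal. The log2 fold change was -0.98 ± 0.25 in Late against Basal (edgeR, adjusted p = 0.00528), -0.92 ± 0.25 in Late against Early (adjusted p = 0.0091, ended without Late 1) and 1.28 ± 0.25 in Reactivated against Late (adjusted p = 0.00198). Its annotated model overlaps Trim17 on the same strand, and Trim17 was 90.9 ± 15.3 for Basal, 160 ± 29.2 for Late and 135 ± 19.2 for Reactivated, a rise in Late against Basal of 0.83 on the log2 scale (edgeR, adjusted p = 0.00436).

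Hist2h2ac, an H2A gene of the Hist2 locus, was at 16.8, 22.4 and 25.8 in the Basal libraries, 12.5, 13.1 and 19.2 in the Early libraries, 14.4, 27.7 and 14.0 in the Late libraries, and 64.7, 43.1 and 25.8 in the Reactivated libraries. The third Reactivated library fell within the range of Late. The gene rose in Reactivated against Late (log2 1.25 ± 0.42, edgeR adjusted p = 0.0453) and against Early (log2 1.55 ± 0.42, adjusted p = 0.0158). The call against Late ended in 12 of 22 alternatives, including the one with the replicate number as a block. It ended without Basal 2, any Early library, Late 1, Late 3, Reactivated 1 or Reactivated 2, and the call against Early ended without Early 1, Early 2 or Reactivated 1. Its neighbour Hist2h2ab passed in no comparison, at 16.8, 10.1 and 17.2 in the Basal libraries, 10.4, 5.52 and 8.35 in the Early libraries, 26.4, 22.5 and 9.34 in the Late libraries, and 9.64, 29.9 and 16.9 in the Reactivated libraries.

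Hist1h2af, an H2A gene of the Hist1 locus, had more counts than all other members together in 3 of the 12 libraries, and 1 library set its Reactivated mean. Its normalized counts were 146, 258 and 385 in the Basal libraries, 290.2, 383 and 678 in the Early libraries, 165, 170.4 and 105 in the Late libraries, and 611, 3971 and 678 in the Reactivated libraries. The second Reactivated library held 4513 of its 8623 counts, and there the gene made up 86.7% of all counts of the members. It rose in Reactivated against Basal (log2 2.72 ± 0.61, edgeR adjusted p = 0.00333) and against Late (log2 3.59 ± 0.64, adjusted p = 0.000987). Without that library the log2 fold changes were 1.28 (adjusted p = 0.0164) and 2.15 (adjusted p = 0.0013), and the rise against Early (log2 1.96 ± 0.59, adjusted p = 0.0253) became 0.52 (adjusted p = 0.313). That rise also ended without Early 1 or Early 2. In Late against Early it fell by 1.63 on the log2 scale (adjusted p = 0.0439), a call that ended in 8 of 22 alternatives, among them those without Basal 2, Early 2, Early 3 or any Late library. Per kilobase of annotated exon its mean normalized count was 1638, against 63.3 for Hist2h2bb, the next member. Its model is 399 bases long and 80.6% of its coding windows occur in other genes, so these counts cannot be placed on this copy with certainty. Hist1h2ae, the fifth H2A gene tested, passed in no comparison and had group means of 3.69 to 7.98.

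Among the H2B genes, Hist1h2bc had its lowest levels in Late. Its normalized counts were 18.1, 14.6 and 15.1 in the Basal libraries, 18.8, 25.5 and 10.0 in the Early libraries, 4.80, 0 and 4.67 in the Late libraries, and 68.8, 19.4 and 32.0 in the Reactivated libraries. All Late libraries lay below all others, and all Reactivated libraries lay above Basal. It fell in Late against Basal (log2 -2.21 ± 0.72, edgeR adjusted p = 0.0203) and rose in Reactivated against Late (log2 3.52 ± 0.69, adjusted p = 0.00198). In Reactivated against Basal the log2 fold change was 1.30 ± 0.56 (adjusted p = 0.0785), and DESeq2 called it. The fall against Basal ended when Late 2, the library at 0, was left out, and that against Early (log2 -2.41 ± 0.71, adjusted p = 0.0136) ended without Early 2. Of its coding windows 97.6% occur elsewhere, but over its whole model the share is 30.6%.

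Hist1h2be, which encodes the same H2B protein, was at 28.5, 13.5 and 17.2 in the Basal libraries, 10.4, 10.3 and 9.19 in the Early libraries, 8.41, 7.93 and 9.34 in the Late libraries, and 37.2, 12.3 and 28.4 in the Reactivated libraries. It rose in Reactivated against Late (log2 1.56 ± 0.49, edgeR adjusted p = 0.0336) and against Early (log2 1.35 ± 0.47, adjusted p = 0.0471). These calls ended in 8 and 17 of 22 alternatives. The first ended without any 1 Late library, Reactivated 1 or Reactivated 3, and the second without any 1 library other than Basal 3 or Reactivated 2. Hist1h2bg, the third gene for this protein, had 62 counts in all and was not tested.

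The other H2B genes tested lie outside the Hist1 locus. Hist3h2ba was at 11.7, 18.0 and 30.8 in the Basal libraries, 11.5, 6.21 and 14.2 in the Early libraries, 36.0, 26.4 and 21.5 in the Late libraries, and 57.8, 20.2 and 24.0 in the Reactivated libraries. It rose against Early in Late (log2 1.40 ± 0.52, edgeR adjusted p = 0.0416) and in Reactivated (log2 1.65 ± 0.51, adjusted p = 0.0293). All 3 Early libraries lay below all Late and Reactivated libraries. These calls held in 13 and 15 of 22 alternatives. The first ended without Basal 2, Early 1, Early 2, Late 1 or Late 2, and the second without Early 1, Early 2 or Reactivated 1.

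Hist2h2be was at 22.0, 28.1 and 25.1 in the Basal libraries, 21.9, 30.4 and 24.2 in the Early libraries, 15.6, 14.5 and 15.9 in the Late libraries, and 12.4, 1.76 and 15.99 in the Reactivated libraries. All Late and Reactivated libraries lay below all Basal and Early libraries. In Reactivated against Basal its log2 fold change was -1.33 ± 0.52 (edgeR, adjusted p = 0.0538), which did not pass, while DESeq2 called it. Hist2h2bb was at 27.2, 28.1 and 13.6 in the Basal libraries, 32.4, 13.8 and 19.2 in the Early libraries, 24.0, 17.2 and 21.5 in the Late libraries, and 31.7, 32.6 and 28.4 in the Reactivated libraries, and passed in no comparison.

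Among the H4 genes, Hist1h4h was at 10.4, 6.73 and 13.6 in the Basal libraries, 8.35, 5.52 and 7.52 in the Early libraries, 1.20, 1.32 and 7.47 in the Late libraries, and 38.5, 17.6 and 20.4 in the Reactivated libraries. All Reactivated libraries lay above all others. It rose in Reactivated against Late (log2 2.76 ± 0.64, edgeR adjusted p = 0.0062) and against Early (log2 1.82 ± 0.57, adjusted p = 0.0305), the latter ending in 7 of 21 alternatives, among them those without any 1 Early library or Reactivated 1. The other H4 genes tested encode the same protein, and none passed in any comparison. Hist2h4 had group means of 15.6 for Basal, 14.3 for Early, 8.95 for Late and 15.7 for Reactivated, where its libraries ran from 0.880 to 30.3. Hist1h4d had means of 16.1, 11.2, 7.39 and 7.12, and Hist1h4i had means of 8.31, 8.76, 4.83 and 3.25, in the same order. Summed over the 13 H4 genes the level was 82.6 ± 14.7 for Basal, 66.2 ± 4.92 for Early, 39.7 ± 10.6 for Late and 77.5 ± 38.8 for Reactivated (SD, n = 3), and the Late libraries were all below those of Basal and Early. When members with the same protein were summed to 1 row before the test, H4 fell in Late against Basal and did not pass in Reactivated against Late.

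**Figure D3:**
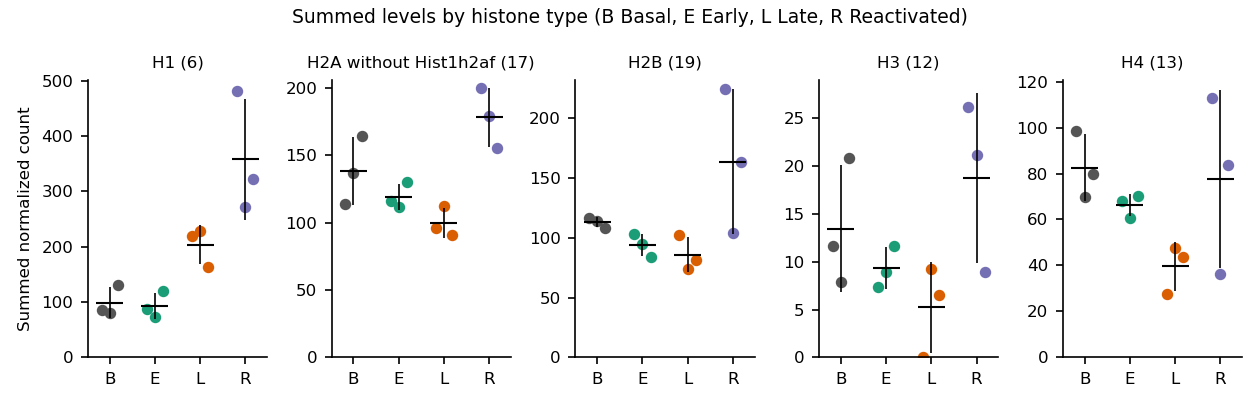
Summed normalized counts (y axis, from 0) by histone type in the 4 groups (x axis), 1 point per library, with the mean as a horizontal line, ± 1 SD as a vertical line and the number of genes summed in brackets. The H2A panel leaves out Hist1h2af, which held 8623 of the 10277 counts of the H2A genes. H1 means rise from 99.0 in Basal to 204 in Late and 358 in Reactivated, while H4 means are 82.6, 39.7 and 77.5 in the same groups.

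By comparison, the counts read as follows. In Early against Basal 0 of 18 members passed, where 6.03% of all genes did (3.36% rose and 2.66% fell). By edgeR no member had an unadjusted p under 0.05, and DESeq2 called 0. The log2 fold changes furthest from 0 were 0.98 ± 0.86 for Hist1h2ae and -0.98 ± 0.52 for Hist3h2ba. In Late against Basal 2 rose (Hist1h1c and Hist1h1e) and 2 fell (Hist1h2bc and Hist3h2a), and 49.1% of all genes passed. Their median log2 fold change was -0.48, against -0.03 for all genes. In Late against Early 3 rose and 3 fell, with 42.3% of all genes passing. In Reactivated against Basal 3 rose (Hist1h1c, Hist1h1e and Hist1h2af) and 0 fell, with 39.4% of all genes passing. In each of these 4 comparisons the share of members that passed was below that of all genes.

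In Reactivated against Late 7 of 18 members rose and 0 fell, where 10.3% of all genes rose and 12.3% fell. The members were Hist1h1e, Hist1h2af, Hist1h2bc, Hist1h2be, Hist1h4h, Hist2h2ac and Hist3h2a, from 4 histone types in the Hist1 locus and from the Hist2 and Hist3 loci. The median log2 fold change of the 18 was 0.65, against 0.03 over all genes. With members of the same protein summed, 5 of 15 rows rose and 0 fell, H4 no longer among them. In Reactivated against Early 8 rose and 0 fell, where 13.5% of all genes rose, and the median was 1.18 against 0.03. The libraries of the groups compared did not overlap in 9 of 18 members in Reactivated against Late (39.7% of all genes) and in 9 in Reactivated against Early (39.1%). The same held for 2 in Early against Basal (23.4%), 8 in Late against Basal (62.5%), 7 in Reactivated against Basal (45.8%) and 9 in Late against Early (59.9%). In Reactivated against Early, 4 of the 8 passed with only the 2 groups in the fit, and without Early 1 or Early 2 the count was 2.

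**Figure D4:**
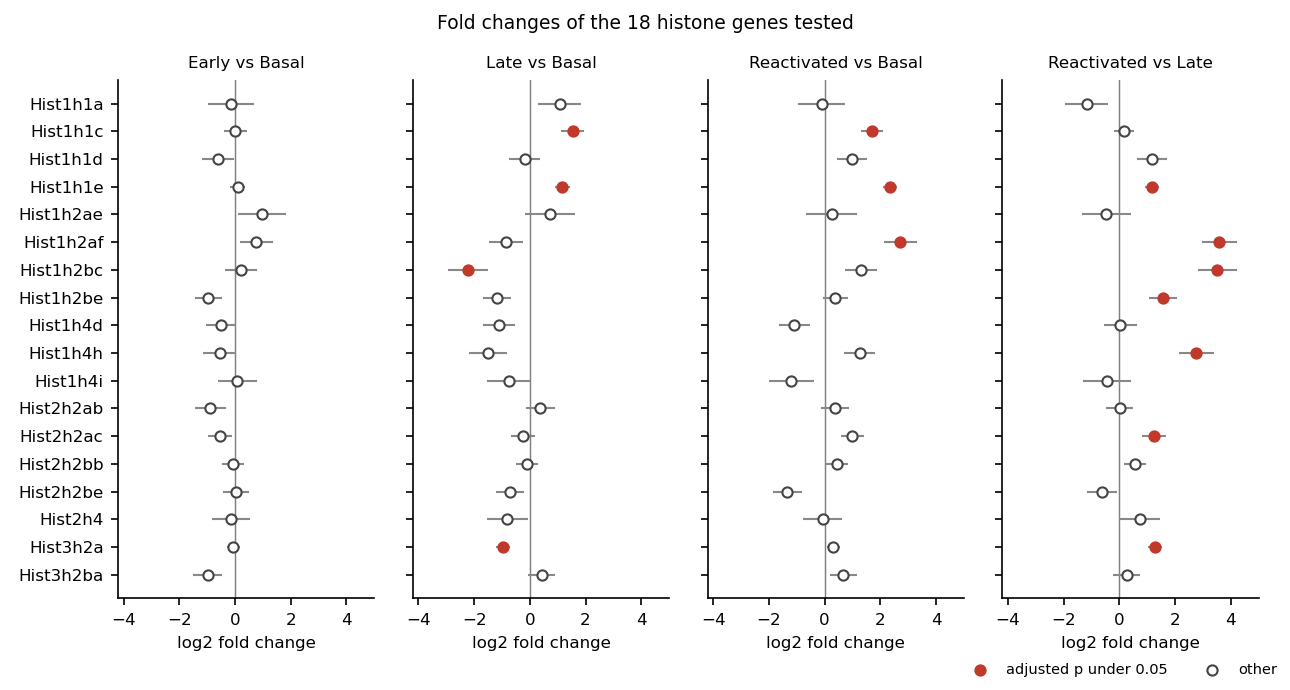
Log2 fold changes (x axis) ± SE for the 18 members tested (y axis) in 4 of the comparisons, filled where the adjusted p was under 0.05. All 7 filled points of Reactivated against Late lie to the right of 0, while Late against Basal has 2 on each side and Early against Basal has none.

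The scaling of the libraries bears on the directions in Late. Scaling to the same total moved the median of all genes to -0.87 in Late against Basal, and then 0 members rose and 8 fell, where over all genes 1401 rose and 9062 fell, with Hist1h1c at 0.70 and Hist1h1e at 0.35 (adjusted p = 0.101 and 0.218). Upper-quartile scaling moved the median to -0.26, and both H1 calls remained. The rises of the H1 genes in Late are therefore rises relative to the other genes. With the share of Rn45s as a covariate no member passed in Late against Basal, and Hist1h1c and Hist1h1e turned to -1.12 and -0.44. This share does not overlap between Late and Basal, so it and the group cannot be told apart. In Reactivated against Late, scaling to the same total gave 8 rises and 0 falls, where over all genes 3881 rose and 1091 fell. The median of all genes was then 0.38.

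The first Reactivated library was the highest in the sums of H1, H2B, H3 and H4, and among the Reactivated libraries it was also the highest in glial markers. The 10 astrocyte markers summed to 11401, 5075 and 5837 in the Reactivated libraries. The 12 oligodendrocyte markers summed to 8146, 3730 and 3179. The 6 markers of oligodendrocyte precursors, a glial cell type that still divides in the adult brain, summed to 591, 249 and 244, against 71.9 to 82.9 in Late and 102 to 158 in Basal and Early. In Reactivated against Late 5 of these 6 rose and 0 fell, where 10.3% of all genes rose and 12.3% fell. Among the 5 was Pdgfra (log2 2.78 ± 0.51, edgeR adjusted p = 0.00114), the growth factor receptor that marks the precursors. None of the precursor markers was at 0 in the mean of a group. Their part in the histone results was not tested. Without the first Reactivated library, Hist1h1e, Hist1h2af, Hist1h2bc, Hist1h4h and Hist3h2a still rose against Late, at 0.93, 4.00, 2.90, 2.35 and 1.17, and Hist1h2be and Hist2h2ac did not pass.

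Sums of glial markers were also high in Late. The 10 microglia markers summed to 736 to 831 in the Basal libraries, 692 to 838 in the Early libraries, 5691 to 9768 in the Late libraries and 858 to 2135 in the Reactivated libraries. The 12 oligodendrocyte markers summed to 2589 to 3228, 1898 to 2534, 4959 to 10207 and 3179 to 8146 in the same order. Of 7 microglia markers tested 3 rose and 3 fell in Late against Basal, where 25.4% of all genes rose and 23.6% fell. Itgam, an integrin subunit, was at 3.74 ± 0.29 on the log2 scale (edgeR, adjusted p = 2.88e-07) and P2ry12, a microglial nucleotide receptor, at -1.97 ± 0.54 (adjusted p = 0.00742). Of 11 oligodendrocyte markers 3 rose and 6 fell in the same comparison, with Ermn, a cytoskeletal protein of myelinating cells, at -1.48 ± 0.25 (edgeR, adjusted p = 0.000259). None of these markers was at 0 in the mean of a group, and their part in the Late levels of the histone genes was not tested.

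Genes of S phase and DNA replication were taken beside the histones. Of 22 tested, 0 rose and 2 fell in Reactivated against Late, Tyms (log2 -0.57 ± 0.18, edgeR adjusted p = 0.0314), which makes thymidylate, and E2f1 (log2 -1.25 ± 0.29, adjusted p = 0.00555), a transcription factor of the S phase programme. Over all genes 10.3% rose and 12.3% fell there. At the same total 1 rose and 1 fell, where over all genes 3881 rose and 1091 fell. In Reactivated against Basal 6 fell and 1, E2f1, rose, where 18.8% of all genes fell and 20.6% rose. There, at the same total, 9 fell and 1 rose, where over all genes 5833 fell and 1240 rose. Mki67, a marker of dividing cells, was 139 ± 35.2 for Basal, 50.1 ± 7.99 for Early, 26.7 ± 3.06 for Late and 33.3 ± 16.5 for Reactivated. Cdk1, the mitotic kinase, was near 0 in every group, with means of 0.717 in Basal, 0.856 in Early and 0 in Late and Reactivated. Top2a, a topoisomerase of dividing cells, had means of 0.926 to 2.98. Cdk1 and Top2a had too few counts to be tested.

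The genes that process histone messages were counted likewise. Of 26 tested, 4 rose and 5 fell in Late against Basal, where 49.1% of all genes passed, and 1 rose and 2 fell in Reactivated against Late, where 22.6% did. At the same total the counts became 2 and 15, and 4 and 0. Over all genes 1401 rose and 9062 fell, and 3881 rose and 1091 fell, at that scaling. Lsm11, a protein of the U7 particle, was 138 ± 15.2 for Basal, 230.2 ± 46.1 for Early, 356 ± 10.0 for Late and 195 ± 36.3 for Reactivated. It rose in Late against Basal (log2 1.36 ± 0.18, edgeR adjusted p = 3.79e-05) and fell in Reactivated against Late (log2 -0.87 ± 0.18, adjusted p = 0.003). Casp8ap2, a nuclear protein needed for histone transcription, went the opposite way, at 210.1 ± 48.5 for Basal, 73.8 ± 4.85 for Late and 153 ± 39.5 for Reactivated. Its log2 fold change in Reactivated against Late was 1.04 ± 0.22 (adjusted p = 0.00383). Slbp, which binds the stem-loop, was 32.3 ± 8.70 for Basal and 49.9 ± 1.87 for Reactivated and passed in no comparison.

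Histone genes outside the clusters, most of which are known to be transcribed independently of replication, were counted as well. Of 11 tested, 5 rose and 1 fell in Late against Basal, where 25.4% of all genes rose and 23.6% fell. In Reactivated against Basal 6 rose and 0 fell, where 20.6% of all genes rose and 18.8% fell. At the same total the counts were 1 and 6 in Late against Basal and 3 and 1 in Reactivated against Basal. Over all genes 1401 rose and 9062 fell in the former at that scaling, and 1240 rose and 5833 fell in the latter. H1f0, a linker histone, was 87.5 in Basal, 201 in Late and 248 in Reactivated, with log2 fold changes against Basal of 1.18 ± 0.25 and 1.49 ± 0.25 (edgeR, adjusted p = 0.0013 and 0.000519). H2afy3 was the strongest of the list in Late, at 559 against 138 in Basal (log2 2.01 ± 0.23, adjusted p = 8.1e-06). In Reactivated against Late 3 rose and 1 fell, where 10.3% and 12.3% of all genes did. H2afj, an H2A variant, rose there (log2 0.96 ± 0.23, adjusted p = 0.00888) and H2afy3 fell (log2 -0.87 ± 0.22, adjusted p = 0.0104).

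Histone chaperones carry histones to and from DNA. Of 25 tested, 11 rose and 2 fell in Late against Basal, and 1 rose and 6 fell in Reactivated against Late. In all, 13 and 7 passed, near the shares over all genes of 49.1% and 22.6%. The balance turned with the scaling. At the same total 5 rose and 12 fell in Late against Basal, where over all genes 1401 rose and 9062 fell. In Reactivated against Late 5 rose and 4 fell at that scaling, where over all genes 3881 rose and 1091 fell. Set was 421 in Basal, 2305 in Late and 862 in Reactivated, with log2 fold changes of 2.45 ± 0.24 in Late against Basal (edgeR, adjusted p = 2.47e-06) and -1.42 ± 0.23 in Reactivated against Late (adjusted p = 0.000492). Npm1 was lowest in Late, at 427 in Basal, 170 in Late and 623 in Reactivated (log2 1.87 ± 0.17 in Reactivated against Late, adjusted p = 2.68e-06).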

How the data were processed

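Nuclear RNA of 12 libraries was deposited by the authors as a table of 1 count per gene symbol and library. The submitters' processing notes name Bowtie2 2.0, Cufflinks 2.2, DESeq2 and the build mm9, without the step each was used for. How reads were counted, with which strand setting and how reads that fit several genes were treated, is not given in the sources used here. Although the name of the table calls its values normalized, they are whole numbers with unequal totals and were treated as raw counts. Per the labels, a stranded total RNA kit with 15 PCR cycles was used in one place and SmartSeq2 in another.

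Genes with at least 10 counts in at least 3 libraries (15668 of 24015) were tested with edgeR 4.0.16 (TMM, quasi-likelihood, 4 group means fitted over 12 libraries) in R 4.3.3. All 6 pairs of groups and a test of any difference were computed, two-sided, with Benjamini-Hochberg adjustment over all genes within a comparison and a threshold of 0.05. The procedure was tested on simulated data. DESeq2 1.42.0 was an alternative among 12. P-values measure the spread between pools of mice.

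Members, the 11 gene lists and the tests were chosen with earlier results of these data known. Values in every library are given for the 12 members with the highest mean and those that passed the test of any difference or a comparison, and up to 3 genes by p-value among those that passed are named from a list. Slbp, Cdk1 and Top2a, and E2f1 in Reactivated against Basal, are named outside this rule, chosen after their values were seen. Protein sets, windows and stem-loops came from GENCODE M21 and promoters from RefSeq (GRCm38.p6). Gene positions on mm9 are not used here. Same-numbered libraries correlated between -0.22 and 0.48 in their deviations from the group means, above 0.1 in all 3 pairs only in Early against Basal, where the block gave 0 calls as well.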

Additional observations from a re-analysis of the deposited data

How the results depend on the processing

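Of the 28 calls of a member in a comparison, 6 held in all alternatives run on single members, namely Hist1h1e in Reactivated against Basal and, in Reactivated against Late, Hist1h1e, Hist1h2af, Hist1h2bc, Hist1h4h and Hist3h2a. With libraries scaled to the same total, 8 members passed in Late against Basal, where over all genes 1401 rose and 9062 fell. In Reactivated against Basal 5 passed (over all genes 1240 rose and 5833 fell). In Reactivated against Early 5 passed (over all genes 719 rose and 4284 fell). With the values as deposited, unscaled, 3 passed in Late against Early (over all genes 1087 rose and 3582 fell). In Reactivated against Early 3 passed with these values (over all genes 343 rose and 1241 fell). DESeq2 called 5 in Reactivated against Basal, and a fit of the 2 groups alone called 4 in Reactivated against Early. With the Rn45s share as covariate, 0 passed in Late against Basal, Late against Early and Reactivated against Early, and 1 in Reactivated against Basal. Over all genes it left 205, 94, 0 and 625 calls in these, where 7686, 6631, 4109 and 6174 passed before. It turned Hist1h1c to -1.12 and Hist1h1e to -0.44 in Late against Basal, and Hist1h1c to -1.05, Hist1h1e to -0.51 and Hist3h2ba to -1.63 in Late against Early. In Reactivated against Early it turned Hist1h1d to -0.24 and Hist3h2ba to -0.13. The cause was not tested.

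Leaving out 1 library at a time gave 0 calls in Early against Basal throughout, 3 to 6 in Late against Basal, 3 to 6 in Reactivated against Basal, 3 to 7 in Late against Early, 5 to 7 in Reactivated against Late, 2 to 8 in Reactivated against Early and 6 to 9 in the test of any difference. In Late against Early the count was 3 without Early 2 or Late 1, and in Reactivated against Basal it was 6 without Reactivated 3. The replicate block gave 4, 3, 6, 6, 7 and 8 calls in Late against Basal, Reactivated against Basal, Late against Early, Reactivated against Late, Reactivated against Early and the test of any difference. It ended Hist2h2ac in Reactivated against Late and Hist1h2be in Reactivated against Early. Of 12 libraries, 0 correlated best with their own number in all 3 other groups at once, a strict count that cannot exclude pairing between 2 groups. Same-numbered libraries of Reactivated and Late correlated at 0.06, 0.07 and 0.17. Outside Early against Basal the numbers were not taken to pair libraries. Few counts limit what can be said of the 50 untested members, 12 of which share every coding window with another gene. The summed level of the 50 was 73.8 ± 8.28 in Basal and 45.3 ± 5.03 in Late.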

Other observations

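The members too low to test held few counts each. Hist4h4, the only gene of its locus, had 93 counts in all and normalized counts of 6.48 to 12.9 for Basal, 4.18 to 5.85 for Early, 6.00 to 9.25 for Late and 6.16 to 7.99 for Reactivated. The pseudogene Hist3h2bb-ps had 48 counts, at 0.717 to 3.37 for Basal, 0.835 to 3.45 for Early, 3.96 to 7.21 for Late and 5.33 to 7.92 for Reactivated, so that Late and Reactivated lay above the other two groups. Hist1h4f had 39 counts and lay at 3.37 to 7.77 for Basal, 4.14 to 5.22 for Early, 1.20 to 2.80 for Late and 0 to 0.888 for Reactivated. Its lowest levels were in Reactivated, where those of Hist1h4h, which encodes the same protein, were highest. These 3 were singled out after their values were seen.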
